A study of Mus musculus with 27 samples.

Results

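The subject is the transcriptome of cardiomyocytes from 8-week-old C57BL/6 mice in which the 3′ distal part of Hand2os1 was deleted on both chromosomes. Hand2os1, also called Hand2as or Uph, is a long non-coding RNA gene next to the heart transcription factor gene Hand2. The samples were chosen by their labels: of the 27 samples of the series, 13 are 8-week cardiomyocyte libraries, with 6 homozygous for the distal allele (D/D), 2 heterozygous (D/+) and 5 wild type (+/+). The 7 +/+ and D/+ libraries together form the control, as in the submitters' design, which asks which genes differ between homozygous mice and heterozygous or wild-type mice. The series also holds embryonic hearts with a full-length deletion, which are not described here. The labels name no drug, no tissue-specific driver and no other allele in any group. The labels call the source cardiomyocytes and the tissue heart, and they do not say how cells were isolated, whether animals were pooled, what sex they had or at what hour they were taken. Nothing says that replicates of a genotype came from separate animals, so the p-values measure the spread between these libraries, part of which may be technical.

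Hand2 is a basic helix-loop-helix transcription factor needed for the formation of the right ventricle and outflow tract, and Hand2os1 is transcribed away from it, from the opposite strand. Long non-coding genes of this kind can act on a neighbour through their transcript, through the act of transcription or through DNA elements within them, and deletions of different parts of the gene are used to separate these. Adult ventricular cardiomyocytes no longer divide. Their messenger RNA is dominated by sarcomere proteins, calcium-handling proteins and mitochondrial enzymes, which burn mainly fatty acids. Under load or injury they switch on natriuretic peptides, skeletal actin and immediate early transcription factors.

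The stretch between the start sites of Hand2 and Hand2os1 is shown because it lies upstream of both genes, at the 5′ end of Hand2os1 and so away from the 3′ part that the allele lacks according to the labels. It comes from the mouse reference GRCm38.p6 (RefSeq), chr8:57320733-57320982, plus strand, the 250 bases before the Hand2 start. This build differs from the one named in the submitters' notes and is used for sequence only. Capitals mark the 123 bases between the start sites, which lie 124 bases apart.
Hand2 upstream: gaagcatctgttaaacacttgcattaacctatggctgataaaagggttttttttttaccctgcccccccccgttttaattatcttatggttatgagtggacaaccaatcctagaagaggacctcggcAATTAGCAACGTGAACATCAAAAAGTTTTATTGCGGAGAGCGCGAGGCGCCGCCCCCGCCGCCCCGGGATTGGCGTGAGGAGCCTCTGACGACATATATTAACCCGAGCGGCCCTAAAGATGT
A search of these 250 bases on both strands found the CCAAT box motif CCAAT at 2 positions, 147 and 55 bases before the Hand2 start, and 33.8% of 32851 RefSeq promoter windows also hold it. The E-box CANNTG, the general motif of helix-loop-helix factors, was found at 2 positions, as in 66.2% of promoter windows. TATAAA (in 12.4% of windows) and GATAAG (in 6.55%) were not among these letters. A match describes the letters and not a site in use.

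Expression was given as FPKM, fragments per unit of transcript length and of library size, which makes levels comparable between genes of different length. The read depth behind them is unknown. Column sums ran from 406408 to 476494, and each library had from 9495 to 10414 genes at 1 FPKM or more. The cell type label was checked against markers. The ventricular cardiomyocyte list (10 genes, all kept) summed to between 67312 and 83472 FPKM in controls and between 58279 and 77619 FPKM in D/D. Markers of lymphocytes, of neutrophils and platelets and of adipocytes had no member at a mean of 1 FPKM. The 12 endothelial markers summed to between 174 and 647 FPKM in controls and between 220 and 813 FPKM in D/D, so vascular RNA was present in each group. In bulk RNA, fewer cells of a type and less RNA per cell cannot be told apart.

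A pair of libraries stood apart from the rest. Hierarchical clustering split the 13 libraries into +/+ replicate 5 with D/D replicate 6 and the remaining 11. These 2 had a median correlation across genes with the others of 0.914 and 0.920 (Pearson's r of log2 values), against 0.941 to 0.973 for the remaining libraries. The library labelled +/+ replicate 5 also had the target gene at 0 FPKM, and it is called +/+ 5 only after that label. It had the fewest genes at 1 FPKM or more (9495), and 101 genes lay at least 2-fold below each of the other 12 libraries. A 0 at 1 gene therefore does not decide its genotype. D/D replicate 5 had the lowest such correlation (0.941) of the 11. Results below are therefore also given without these 3 libraries, a choice made after seeing the data.

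Hand2os1, listed in the table as LOC102636514, was the first gene examined because it checks the labels. The 5 +/+ libraries ran from 0 FPKM (replicate 5) over a median of 9.29 FPKM to 13.48 FPKM (replicate 1), with replicate 4 at 6.90 FPKM and replicate 3 above the median. In D/+ it was at 5.25 and 6.17 FPKM. In D/D replicates 1 to 6 it was at 2.27, 2.67, 0.24, 0, 0 and 0 FPKM. Each D/D library lay below 6 of the 7 controls, and the library labelled +/+ replicate 5 was at the level of D/D. Many other genes were low in that library too, so its 0 does not decide its genotype. Means were 8.23 ± 5.22 (SD, n = 5) in +/+, 5.71 ± 0.651 (SD, n = 2) in D/+ and 0.863 ± 1.25 (SD, n = 6) in D/D. On the log2(FPKM + 1) scale the difference between D/D and control was -2.11 (SE 0.55, 95% interval -3.29 to -0.94, limma adjusted p 0.9999, range over the alternatives 0.0649 to 0.999995). The value was -2.57 without +/+ replicate 5. The labels do not give the ends of the deletion, and the table holds 1 value per gene, so reads from the retained 5′ part and from the distal part cannot be told apart in the D/D libraries with a value above 0.

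**Figure D1:**
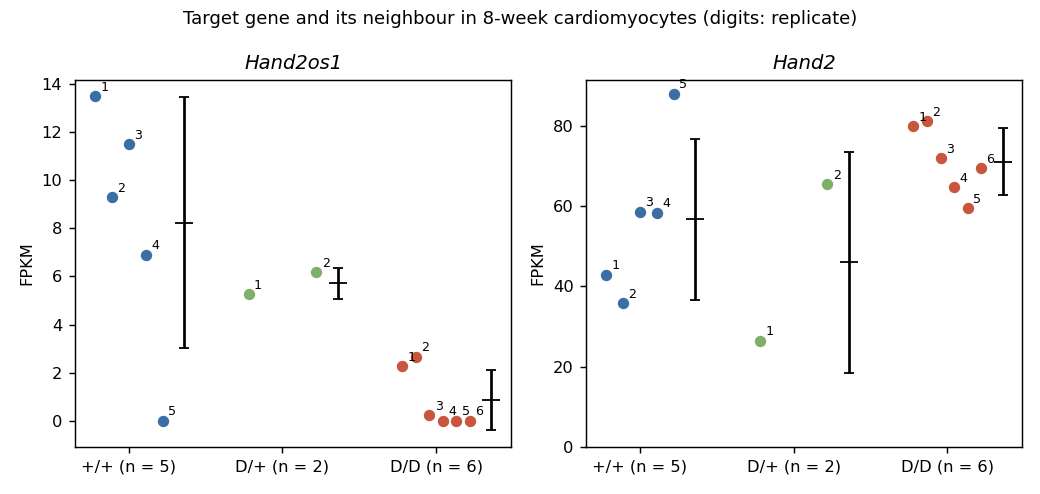
FPKM (y axis) of Hand2os1 (left) and Hand2 (right) in each 8-week library by genotype (x axis). Points are libraries, digits are replicate numbers, and the black bars give the mean and SD. Hand2os1 is at or below 2.67 FPKM in each D/D library and in +/+ replicate 5, while Hand2 values of the genotypes overlap.

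Hand2 itself ran from 59.5 to 81.2 FPKM in D/D, with a median of 70.6, and from 26.5 to 88.0 FPKM in the controls, with a median of 58.3. In +/+ it was at 42.9, 35.8, 58.6, 58.3 and 88.0 FPKM, and in D/+ at 26.5 and 65.4 FPKM. The groups overlapped: the highest value of all 13 was +/+ replicate 5, and each D/D library lay above 5 of the 7 controls. The log2 difference was 0.48 (SE 0.22, interval 0.01 to 0.96), with an unadjusted limma p of 0.0479, a limma adjusted p of 0.9999 and a two-sided exact permutation p of 0.0676 over 1716 splits. Against +/+ alone it was 0.38, with an exact permutation p of 0.113 over 462 splits. It ranged from 0.33 without D/+ replicate 1 to 0.62 without +/+ replicate 5. Without the 3 libraries that stood apart it was 0.68 (interval 0.20 to 1.17, unadjusted limma p 0.00997, limma adjusted p 0.99997). This choice was made after seeing the data. It takes out the highest control (+/+ 5, 88.0 FPKM) and the lowest D/D library (D/D 5, 59.5 FPKM), which raises the difference by itself. The smaller p is therefore not stronger evidence.

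Hand2 was also read within sets of libraries that resembled each other. When the same clustering tree was cut into 3 sets, +/+ 1, +/+ 2, D/+ 1, D/D 1 and D/D 2 came together, with 80.5 FPKM in D/D and 35.0 FPKM in control, a log2 difference of 1.20. In the set of +/+ 3, +/+ 4, D/+ 2, D/D 3, D/D 4 and D/D 5 the means were 65.4 and 60.8 FPKM, a log2 difference of 0.10. Within the pair of +/+ 5 and D/D 6 it was -0.34. The labels name no batch that corresponds to these sets, and their part in the result was not tested.

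Of the 7 flanking genes listed with the locus, 4 were expressed at a mean of 1 FPKM or more. Sap30, a subunit of a histone deacetylase complex, had 3.84 to 9.43 FPKM in control and 3.98 to 9.04 FPKM in D/D (log2 difference 0.17). Hmgb2, a chromatin protein, differed by -0.17, Fbxo8, an F-box protein, by -0.15 and Cep44, a centrosomal protein, by -0.08. The smallest unadjusted limma p among the 4 was 0.367, for Fbxo8. Galnt7 and Hpgd stayed at or below 1.48 and 0.56 FPKM, and Scrg1 was listed at 0 in all 13 libraries.

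Across the transcriptome no gene separated D/D from control at the threshold. limma called 0 of 10249 genes (0%) at a Benjamini-Hochberg adjusted p under 0.05, and 175 genes (1.71%) had an unadjusted p under 0.05, with 84 higher (0.82%) and 91 lower (0.888%) in D/D. Chance alone gives about 5% at this cutoff, more than was found, so such a p does not single out a gene. Without the library labelled +/+ 5 the number at an unadjusted p under 0.05 was 352, and without D/D 2 it was 331. A larger value in D/D was found for 47.8% of genes, and the median log2 difference was -0.01. The groups did not overlap at 3 genes (0.0293%), which were named after their values were seen. D/D was higher at 2 (0.0195%), Txnrd1 and the nucleosome assembly protein gene Tspyl1, and lower at 1 (0.00976%), Tsnax, which encodes a partner of translin.

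The width of the intervals shows how closely the difference of each single gene was measured. It does not show which changes the adjusted threshold could call. Hand2os1 itself, at -2.11 (interval -3.29 to -0.94), was not called (limma adjusted p 0.9999). The median gene had a 95% interval reaching 0.38 to each side on the log2 scale, and 1 gene in 10 had more than 0.65. For 9642 genes (94.1%) the whole interval lay within 1 of 0, about a doubling or halving for genes well above 1 FPKM, while for 81 genes it reached beyond 1 on both sides. With a pseudocount of 0.1 in place of 1 the number within 1 of 0 was 8748. The pseudocount of 1 pulls genes near 1 FPKM towards 0, so for those a difference of 1 is more than a doubling in FPKM.

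Of 6212 genes that averaged 5 FPKM or more and were never listed at 0, 99 (1.59%) had an unadjusted limma p below 0.05, 50 of them higher and 49 lower in D/D. This share too was below the about 5% that chance gives, so these genes are described and not called. The 10 largest positive and 10 largest negative differences among these 99 are described here, each with a limma adjusted p of 0.9999. The largest positive difference among them was at Mgst1, a membrane-bound glutathione transferase. It ran from 17.7 to 69.9 FPKM in D/D (median 23.6) and from 1.05 to 22.3 FPKM in control (median 16.3), a log2 difference of 1.36 (interval 0.29 to 2.43). Its highest values were in D/D 5 and D/D 6 and its lowest in +/+ 5, and without those 3 libraries the difference was 0.44. Scd4, a stearoyl-CoA desaturase, followed with 1.18, and its highest value, 43.8 FPKM, was in D/D 6. The difference was 0.77 without that library and 0.61 without the 3.

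The other 8 higher genes have varied roles. Acot2, a mitochondrial acyl-CoA thioesterase, had 35.8 to 164 FPKM in D/D and 24.3 to 51.8 FPKM in control (log2 difference 0.84, and 0.37 without the 3 libraries). Plin2, which coats lipid droplets, had 33.0 to 118 FPKM in D/D and 22.2 to 39.5 FPKM in control (0.68). Its difference was 0.42 without D/D 6 and 0.24 without the 3 libraries. Rbp7, a retinol-binding protein, differed by 0.72, and by 0.37 without the 3. Lmcd1, a LIM-domain regulator of cardiac growth genes, had 22.4 to 61.1 FPKM in D/D (median 33.9) and 15.4 to 25.0 FPKM in control (median 20.5), a log2 difference of 0.77 (SE 0.23), and 0.51 without the 3 libraries. Epn3, an epsin of endocytosis, differed by 0.74 (SE 0.21) and by 0.59 without them. Tnfrsf12a, the receptor for TWEAK, differed by 0.82, Ifi27l2a, an interferon-inducible gene, by 0.97 and Calr3, a calreticulin, by 0.72. These differences were 0.38, 0.78 and 0.40 without the 3 libraries.

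Of the 10 lower genes, Rapsn, which anchors receptors at the nerve-muscle junction, had the smallest p. It had 6.18 to 13.6 FPKM in D/D (median 9.63) and 12.3 to 22.3 FPKM in control (median 15.3), a log2 difference of -0.66 (SE 0.18), and -0.35 without the 3 libraries. Ppargc1a, the coactivator of mitochondrial biogenesis, had 7.26 to 20.9 FPKM in D/D (median 11.6) and 11.8 to 31.8 FPKM in control (median 19.5), with a difference of -0.66 (SE 0.24), and -0.55 without the 3 libraries. Myh7b, a slow-type myosin heavy chain, differed by -0.71 and Pfkfb2, the cardiac regulator of phosphofructokinase, by -0.68. Both were lowest in D/D 5 and D/D 6. Without D/D 5 they were at -0.46 and -0.44, and without the 3 libraries at -0.39 and -0.34. Lrrc4b, a leucine-rich repeat membrane protein, and Rmnd1, a mitochondrial translation factor, differed by -0.72 each. Rmnd1 was at -0.38 without D/D 5, and without the 3 libraries Lrrc4b was at -0.29 and Rmnd1 at -0.32. Rpl10, a ribosomal protein gene with many near-identical copies whose reads the counting may have split, differed by -0.69, and by -0.85 without the 3 libraries.

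Of the 3 remaining lower genes, Dbp (-1.76) and Hlf (-0.69) are output factors of the circadian clock, described with that list. Hba-a2, an alpha globin, had 0.01 to 0.04 FPKM in 4 controls and 17.8, 81.9 and 19.1 FPKM in +/+ 1, 2 and 5, and at most 0.03 FPKM in D/D (log2 difference -2.12, and -1.41 without +/+ 2). The near-identical Hba-a1 had 1.18 to 144 FPKM in D/D and 1.44 to 135 FPKM in control (-0.15), so the assignment of globin reads between the copies is uncertain.

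**Figure D2:**
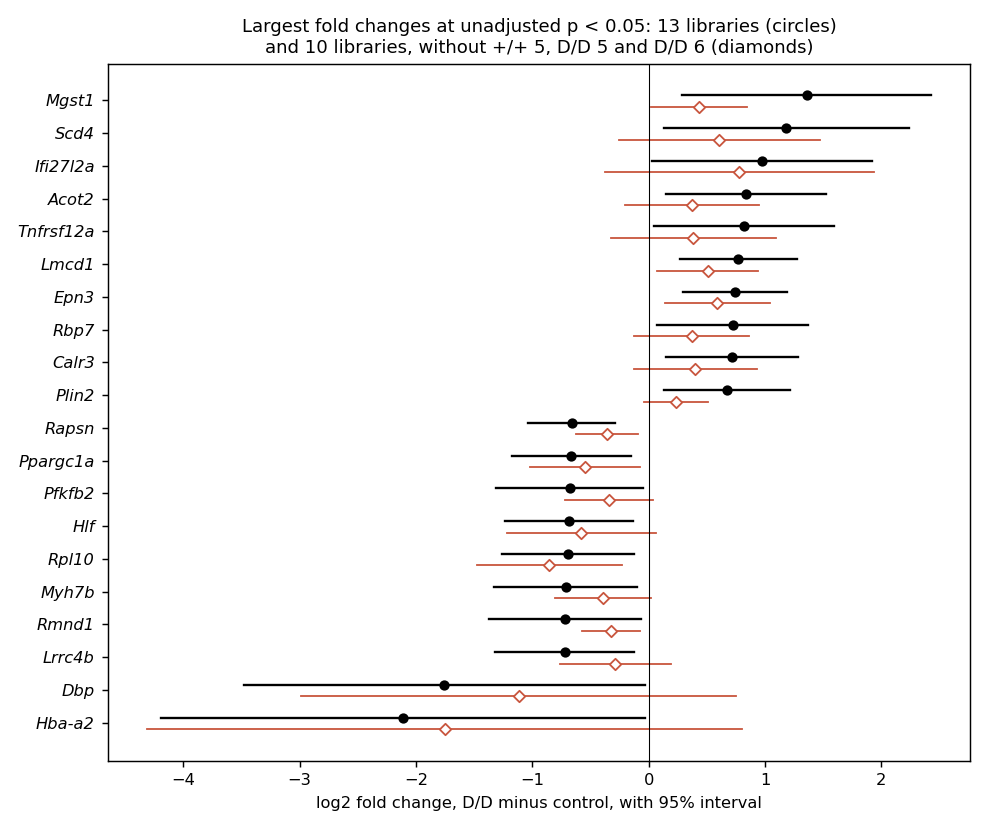
Log2 fold change of D/D minus control (x axis) with 95% intervals for the 10 genes with the largest positive and the 10 with the largest negative difference (y axis) among the 99 that averaged 5 FPKM or more, were never at 0 and had an unadjusted p under 0.05. Black circles use all 13 libraries and open diamonds the 10 libraries without +/+ 5, D/D 5 and D/D 6. The Mgst1 estimate moves from 1.36 to 0.44, while Ppargc1a moves from -0.66 to -0.55.

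The sarcomere genes were compared next, thick filament first. Of 9 thick filament genes 3 were higher and 6 lower in D/D, with 2 at an unadjusted p under 0.05, both lower. The median was -0.15, beside -0.01 over all genes. It was -0.049 without D/D 5 and -0.03 without the 3 libraries. Mylk3, the cardiac myosin light chain kinase, had 93.3 to 146 FPKM in D/D (median 139) and 142 to 195 FPKM in control (median 174). Its log2 difference was -0.43 (SE 0.12, limma adjusted p 0.9999), and the ranges overlapped by 1 D/D library at 146 FPKM. The difference was -0.25 without the 3 libraries. Myl2, the ventricular regulatory light chain, had 8386 to 14824 FPKM in D/D and 11845 to 15819 FPKM in control (-0.21). Its difference was -0.10 without D/D 6 and -0.03 without the 3 libraries. Myh7, the slow myosin that adult mouse ventricle holds at a low level, was high in 1 library of each group, at 804 FPKM in +/+ 2 and 976 FPKM in D/D 6, and ran from 66.9 to 195 FPKM in the others.

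Thin filament genes fell on both sides of 0. Of 9, 4 were higher and 5 lower (median -0.04), while 8 of 9 were higher without the 3 libraries (median 0.13), and Tnnt2, cardiac troponin T, differed by -0.04. Acta1, skeletal actin, had 693, 557, 463, 283, 224 and 197 FPKM in D/D 1 to 6 and 150 to 352 FPKM in control. Its difference was 0.48 (SE 0.29), 0.29 without D/D 1 and 0.74 without the 3 libraries. Of 19 Z-disc and M-band genes 14 were higher and 5 lower (median 0.08), with Myot, myotilin, at 0.60 and Csrp3, the muscle LIM protein, at 0.31 as the 2 members with an unadjusted p under 0.05. With the 3 libraries left out 10 were higher and 9 lower, the median was 0.01, and Myot and Csrp3 were at 0.38 and 0.13.

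Calcium cycling and ion channels were compared next. Of 14 calcium genes 5 were higher and 9 lower (median -0.04). Atp2a2, the calcium pump SERCA2 of the sarcoplasmic reticulum, had 2003 to 2854 FPKM in D/D and 1861 to 3007 FPKM in control (-0.06). All 14 were higher once the 3 libraries were left out, at a median of 0.09, where 41.6% of all genes were higher. Of 23 channel and connexin genes 9 were higher and 14 lower (median -0.04). The 2 with an unadjusted p under 0.05 encode the subunits of the slow delayed rectifier potassium channel. Kcnq1, its pore, had 12.6 to 30.0 FPKM in D/D (median 19.0) and 23.7 to 30.3 FPKM in control (median 27.4), a log2 difference of -0.44 (SE 0.15). Kcne1, its auxiliary subunit, had 0.29 to 2.83 FPKM in D/D and 0.54 to 3.97 FPKM in control (-0.59). Both overlapped between groups, and Kcne1 was low, with values on both sides of the 1 FPKM filter in each group. Without the 3 libraries Kcnq1 was at -0.26 (unadjusted limma p 0.073). Of 17 adrenergic and muscarinic genes 6 were higher and 11 lower (median -0.05).

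Energy metabolism was examined by pathway. Of 23 genes of fatty acid uptake and oxidation 19 were higher and 4 lower in D/D, with a small median of 0.08 and 0 at an unadjusted p under 0.05. In the 10 remaining libraries 18 were higher and 5 lower, at a median of 0.07, where 41.6% of all genes were higher. With all libraries Fabp3, the heart fatty acid-binding protein, differed by 0.24 and Mlycd, malonyl-CoA decarboxylase, by 0.42. Mlycd was at 0.21 without D/D 6. Without the 3 libraries Fabp3 was at 0.32 and Mlycd at 0.22. Cd36, the fatty acid transporter, differed by 0.63 (interval -0.38 to 1.63). It was at 3.01 FPKM in +/+ 5 and at 32.0 to 62.7 FPKM in the other 12.

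Glucose use went to the other side of 0. Of 23 genes 7 were higher and 16 lower (median -0.05), and 3 lower genes had an unadjusted p under 0.05. These were Pfkfb2, Slc2a4, the insulin-regulated glucose transporter GLUT4 (165 to 331 FPKM in D/D, 244 to 371 FPKM in control, -0.35), and Hk1, hexokinase 1 (-0.26). In the 10 remaining libraries 11 were higher and 12 lower, and the median was -0.0024. Of 19 tricarboxylic acid cycle genes 4 were higher and 15 lower (median -0.06), and 11 were higher without the 3 libraries. Of 36 nuclear genes of oxidative phosphorylation 20 were higher and 16 lower (median 0.02), with Cox8b (0.18) and Cox6c (0.30), both cytochrome oxidase subunits, at an unadjusted p under 0.05. Once the 3 libraries were left out 26 were higher and 10 lower (median 0.07). Creatine and energy transfer (10 genes) had a median of -0.06, and 0.06 without the 3 libraries. Mitochondrial dynamics and autophagy (23 genes) had 0.0094 and -0.01.

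Targets and regulators of PPAR, the nuclear receptors that sense fatty acids, differed more. Of 19 genes 14 were higher and 5 lower (median 0.30), with Plin2 and Acot2 higher and Ppargc1a lower at an unadjusted p under 0.05. Pdk4, which blocks pyruvate oxidation, had 47.2, 58.3, 385, 83.1, 97.3 and 824 FPKM in D/D 1 to 6 and 24.6 to 177 FPKM in control (log2 difference 0.72, SE 0.64). Its difference was 0.21 without D/D 6 and 0.26 without the 3 libraries. Angptl4, an inhibitor of lipoprotein lipase, was highest in the same libraries as Pdk4, at 14.1 FPKM in D/D 3 and 32.7 FPKM in D/D 6, and at most 7.01 FPKM in the other D/D libraries. For both genes the D/D libraries thus ran from within the control range to above the highest control. Without the 3 libraries 12 were higher and 7 lower, and the median was 0.10.

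Among the pathway lists the largest median belonged to oxidative stress genes, of which 13 of 14 were higher in D/D (median 0.35). Txnrd1, thioredoxin reductase, had 16.6, 16.4, 18.9, 17.2, 43.2 and 21.96 FPKM in D/D 1 to 6 and 11.54 to 16.3 FPKM in control. The lowest D/D library was just above the highest control, and the log2 difference was 0.56 (SE 0.19) with all libraries, 0.35 without D/D 5 and 0.29 without the 3. Cat, catalase, differed by 0.43. The list's median was 0.15 without D/D 5 alone, and some members were far higher in D/D 5 and D/D 6 than elsewhere. Hmox1, haem oxygenase 1, was at 228 FPKM in D/D 5 and 40.1 FPKM in D/D 6, at 2.34 to 7.96 FPKM in the other D/D libraries and at 1.71 to 14.9 FPKM in control. Mt1, a metal-binding stress protein, was at 1946 and 3066 FPKM in D/D 5 and D/D 6 and at 379 to 808 FPKM in the other 11. Without the 3 libraries 10 of 14 were higher, the median was 0.06 and Mt1 changed sign (-0.07).

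Stress and immediate early genes followed the same libraries. Of 18 stress and hypertrophy genes 15 were higher and 3 lower (median 0.28), among them Ankrd1, the stretch-responsive ankyrin repeat protein (0.59), and Nppb, the B-type natriuretic peptide (0.60), neither at an unadjusted p under 0.05, which Csrp3 alone reached. In the 10 remaining libraries 8 were higher and 10 lower, and the median was -0.03. Of 20 immediate early genes 13 were higher and 7 lower (median 0.04), with 0 at an unadjusted p under 0.05. Without the 3 libraries 0 of 20 were higher and the median was -0.43, with 3 at an unadjusted p under 0.05. Over all genes 41.6% were then higher, and 324 of 10250 had such a p. Egr1, the zinc-finger factor with the highest level in the list, had 326, 469, 556, 422, 1636 and 914 FPKM in D/D 1 to 6 and 431 to 867 FPKM in control. Its difference was 0.07 with all libraries and -0.45 (unadjusted limma p 0.068) without the 3. Over the immediate early list the lowest and the highest mean centred log2 levels were both in D/D libraries, at -0.67 in D/D 4 and 1.34 in D/D 5.

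Endothelial, fibroblast and macrophage markers were highest in D/D 5, and D/D 6 did not share these high levels. The mean centred log2 level of the endothelial markers was 1.10 in D/D 5 and at most 0.52 in any other library. For fibroblast markers it was 1.07 in D/D 5 and at most 0.35 elsewhere, and for macrophage and monocyte markers 1.39 in D/D 5 and at most 0.39 elsewhere. For smooth muscle and pericyte markers it was at most 0.33 in D/D and at most 0.18 in control. The ventricular list was lowest in D/D 6 (-0.47), D/D 5 (-0.39) and +/+ 5 (-0.31). Summed FPKM of the fibroblast list ran from 135 to 323 in control and from 109 to 574 in D/D, with 9 of 10 markers kept, and that of the macrophage list from 13.5 to 27.6 and from 9.71 to 59.0, with 7 of 12 kept. The part of these cells in the stress, oxidative stress and immediate early values was not tested.

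**Figure D3:**
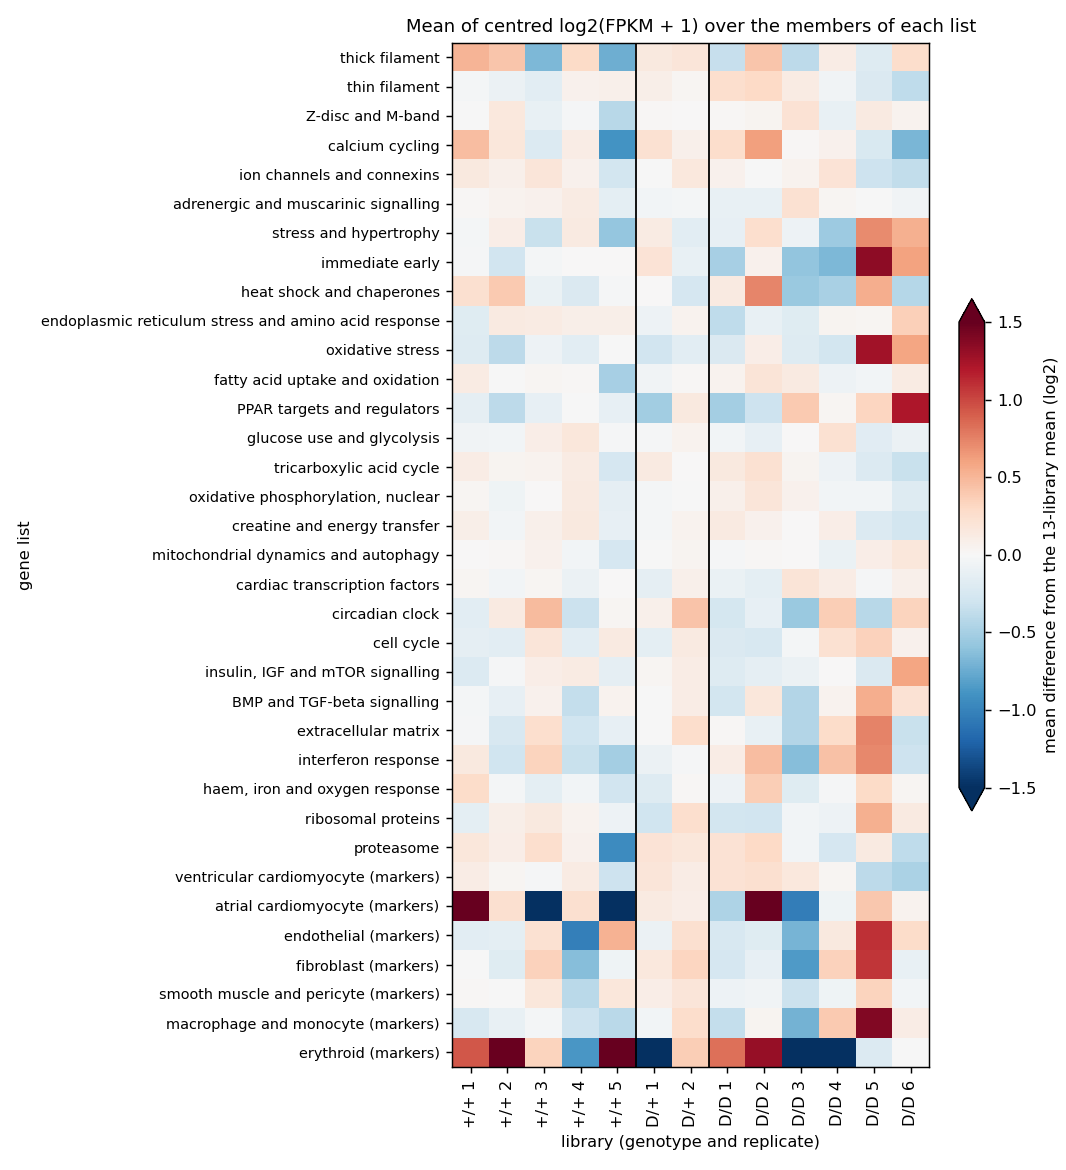
Mean of log2(FPKM + 1), centred over the 13 libraries, over the members of each gene list (rows) in each library (columns, with black lines between genotypes); the colour scale runs from -1.5 to 1.5. Oxidative stress (1.26) and immediate early genes (1.34) are highest in D/D 5 and PPAR targets (1.21) in D/D 6, while immediate early genes are lowest in D/D 4 (-0.67).

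The circadian clock list spread widely within each group. Of 19 genes 8 were higher and 11 lower in D/D (median -0.09), with Dbp and Hlf at an unadjusted p under 0.05. In the 10 remaining libraries 6 were higher and 13 lower (median -0.16), and Dbp was at -1.11 and Hlf at -0.58. Dbp, a clock output factor, had 27.1, 37.5, 5.49, 139, 1.83 and 24.2 FPKM in D/D 1 to 6 and 9.43 to 168 FPKM in control (median 70.5). Arntl, the activator BMAL1, had 4.83, 3.94, 8.86, 0.29, 16.2 and 0.68 FPKM in the same D/D libraries and 0.17 to 7.85 FPKM in control (log2 difference 0.83). Both were opposite at their extremes: the 3 libraries with the lowest Dbp, which were D/D 5, D/D 3 and +/+ 4, had the 3 highest Arntl values. The 3 with the highest Dbp, which were +/+ 3, D/+ 2 and D/D 4, had the 3 lowest. Between them the order did not hold throughout. D/D 6 had less Dbp than D/D 1 (24.2 against 27.1 FPKM) and also less Arntl (0.68 against 4.83 FPKM). Per3, a clock repressor, differed by -0.97 and was low in D/D 5 (0.62 FPKM) and D/D 3 (1.07 FPKM). The extremes came from both groups, and no hour of collection is given, so its part in these differences was not tested.

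Cardiac transcription factors were compared next. Of 27 kept, 20 were higher and 7 lower (median 0.06), and 16 and 11 without the 3 libraries (median 0.03), and Hand2 was the 1 member with an unadjusted p under 0.05. Gata4, a zinc-finger partner of Hand2 in the embryo, had 50.4 to 89.3 FPKM in D/D and 49.5 to 65.0 FPKM in control (0.20). Nkx2-5 differed by 0.10 and Tbx5 by 0.06. The interval of each of the 27 lay within 1 of 0. Hand1 stayed at or below 0.21 FPKM and Isl1 was listed at 0 throughout.

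In the BMP and TGF-beta list 15 of 21 genes were higher and 6 lower (median 0.12), and 6 were higher and 15 lower without the 3 libraries (median -0.07). It was -0.10 with array weights. Ltbp1, which stores latent TGF-beta in the matrix, had a lowest value of 3.91 FPKM and a median of 6.60 FPKM in D/D and 7.82 to 11.1 FPKM in control (-0.47, and -0.27 without the 3 libraries). D/D 2 and D/D 4 lay inside the control range. It was the 1 member with an unadjusted p under 0.05. Id3, a BMP target, was at 254 FPKM in D/D 5 and at 29.7 to 114 FPKM in the other 12. Of 22 extracellular matrix genes 9 were higher and 13 lower (median -0.05). Col4a2, a basement membrane collagen, differed by 0.46 and was highest in D/D 5 (154 FPKM) and D/D 6 (109 FPKM). Its difference was 0.28 without the 3 libraries.

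Members of the interferon-response list leaned higher, and with all libraries none of them reached an unadjusted p under 0.05. Of 19 genes 17 were higher and 2 lower (median 0.18), and 13 and 6 without the 3 libraries (median 0.08). With limma's array weights the median was -0.06. Irf7, which drives interferon genes, had 4.92, 7.54, 2.65, 17.1, 11.47 and 7.39 FPKM in D/D 1 to 6 and 3.17 to 7.07 FPKM in control (0.54). Its difference was 0.32 without D/D 4 and 0.48 without the 3 libraries. B2m, the light chain of class I molecules, had the largest difference (1.04), but it was 0.71 FPKM in +/+ 5 and 71.7 to 289 FPKM in the other 12, and without that library the difference was 0.14.

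**Figure D4:**
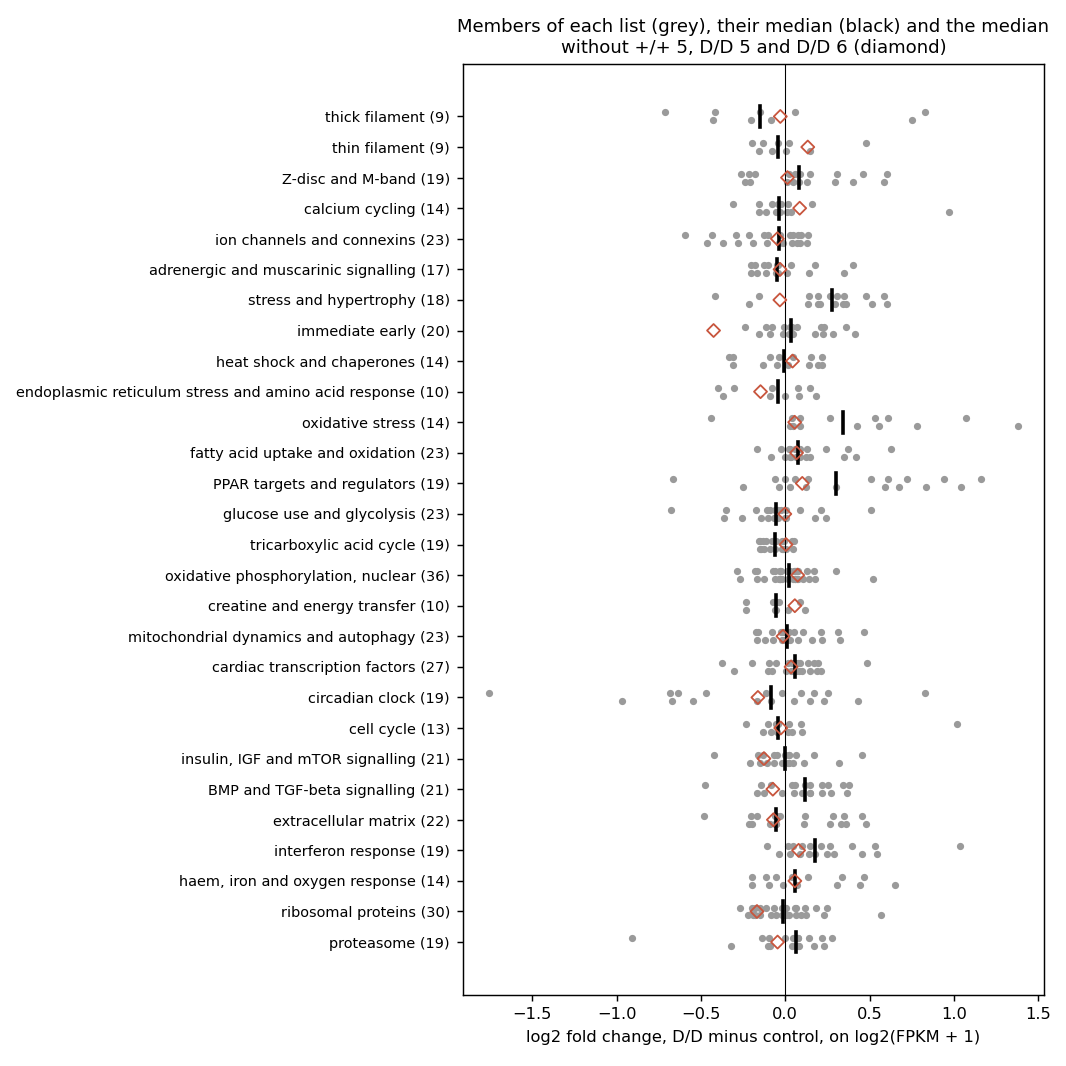
Log2 fold change of D/D minus control (x axis) of each kept member (grey points) of the pathway lists (y axis, with the number kept). Black bars are medians over 13 libraries, and open diamonds are medians without +/+ 5, D/D 5 and D/D 6; the oxidative stress median moves from 0.35 to 0.06 and the immediate early median from 0.04 to -0.43.

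Lists of general cell functions had medians near 0 with all libraries. Insulin, IGF and mTOR signalling (21 genes) had a median of -0.0035, heat shock proteins and chaperones (14 genes) -0.01, ribosomal proteins (30 genes) -0.01, the proteasome (19 genes) 0.06 and haem, iron and oxygen response (14 genes) 0.05. The first 3 of these medians were above 0 with median-ratio scaling. Without the 3 libraries ribosomal proteins had 5 higher and 25 lower (median -0.17), with 4 lower at an unadjusted p under 0.05, and insulin, IGF and mTOR signalling had 4 higher and 17 lower (median -0.13), beside -0.03 over all genes. Of all 10250 genes in that setting 41.6% were higher, and 207 were lower at such a p. Heat shock proteins were then at 0.04, the proteasome at -0.05 and haem, iron and oxygen response at 0.06. Cell cycle genes were mostly silent, with 13 of 30 kept and a median of -0.04. Cdkn1a, the inhibitor p21, varied most among them. It had 21.6, 55.8, 75.6, 16.9, 255 and 130 FPKM in D/D 1 to 6 and 16.7 to 112 FPKM in control (log2 difference 1.02, SE 0.58), and 0.19 without the 3 libraries.

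Separating the genotypes changed no call. limma called 0 genes (0%) in D/D against +/+, where 104 (1.01%) had an unadjusted p below 0.05. It also called 0 in D/+ against +/+, where 62 (0.605%) did, and 0 in D/D against D/+, where 136 (1.33%) did. These comparisons share libraries. Hand2 differed by 0.75 in D/D against D/+ and by -0.37 in D/+ against +/+, with 2 D/+ libraries at 26.5 and 65.4 FPKM.

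D/D libraries differed more among themselves than controls did. The median SD of a gene's log2 values was 0.34 over the 6 D/D libraries and 0.28 over the 7 controls, and 64.9% of genes had the larger SD in D/D. Without the 3 libraries the medians were 0.26 and 0.20, and 67.0% of genes had the larger SD in D/D. This difference in spread was not tested. Atrial markers show how far it can go: Myl7, the atrial light chain, ran from 10.9 to 398 FPKM in D/D and from 2.72 to 323 FPKM in control. Nppa, atrial natriuretic peptide, was highest in D/D 2 (1315 FPKM) and +/+ 1 (1076 FPKM). Sln, the atrial regulator of SERCA, was at 210 FPKM in +/+ 1 and 205 FPKM in D/D 2 and at most 44.5 FPKM elsewhere. High atrial levels were thus found in 1 library of each group.

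**Figure D5:**
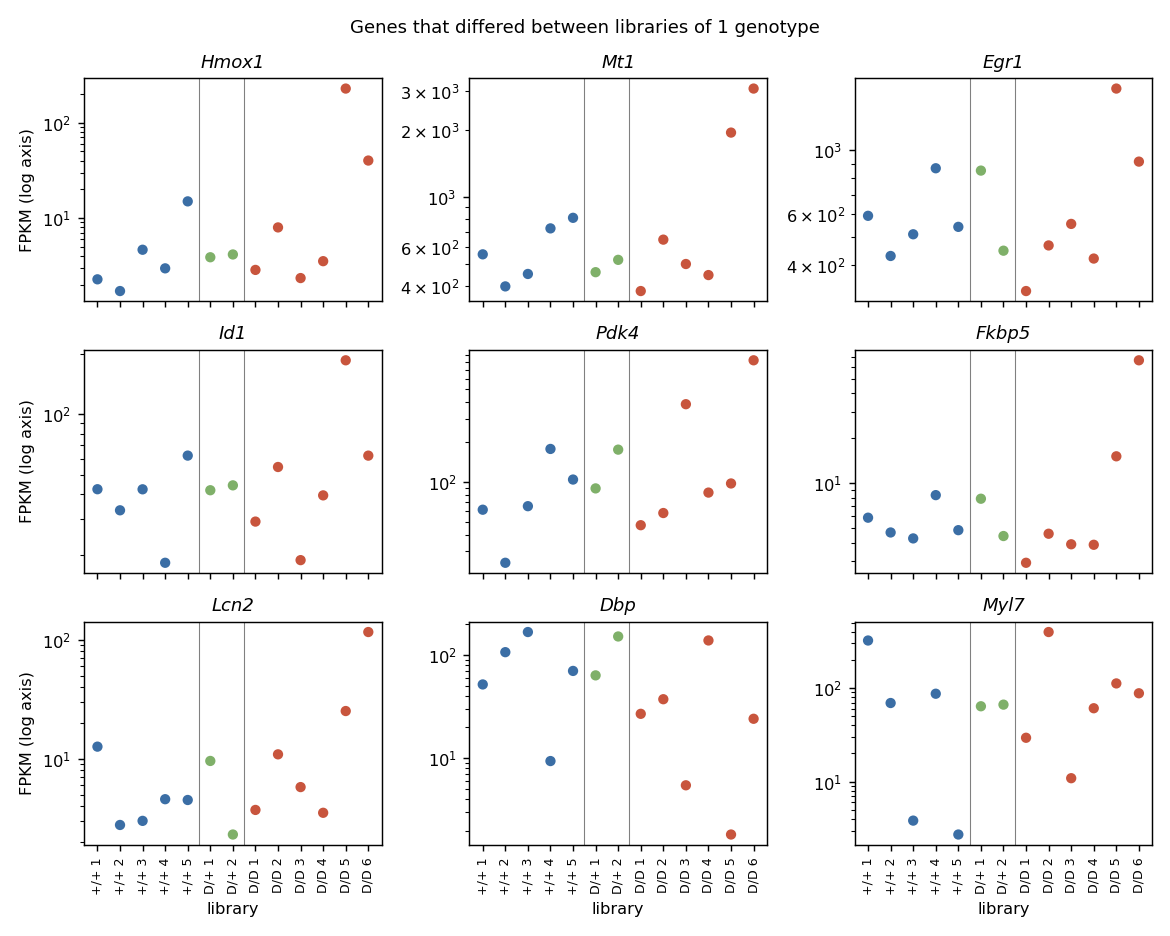
FPKM on a log axis (y) of 9 genes in each library (x), coloured by genotype with lines between genotypes. Hmox1, Mt1, Egr1 and Id1 are highest in D/D 5 or D/D 6, Pdk4 in D/D 6 and D/D 3, and Fkbp5 and Lcn2 in D/D 6; Dbp and Myl7 spread over both D/D and control.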

How the data were processed

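The bulk table holds values deposited by the authors in units inferred as FPKM, since no header names the unit; whole reads could not be recovered and depth is unknown. Per the submitters' processing notes, CASAVA, TopHat2 2.0.11, TopHat and the build mm9 were used. The program that made the values, its annotation and whether counting used strand are not given in the sources used here. Per the labels' protocols, poly(A) RNA went into a stranded kit. The 12 embryonic columns and the single-cell table were not used.

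Identical lines of 1 symbol were merged (24525 lines, 24026 genes). Values were taken as log2(FPKM + 1), and the 10249 genes that averaged 1 FPKM or more in the 13 libraries were kept. For genes at low levels this scale makes a fold change look smaller than it is. limma 3.58.1 (R 4.3.3) with an intensity trend compared 6 D/D with 7 control libraries, or the 3 genotypes in a single fit, with a Benjamini-Hochberg adjusted p of 0.05 as threshold. The test was tested on simulated data. For Hand2 a two-sided exact permutation test on log2 values was added (Python 3.11.15). Lists have no test: members higher and lower, members at an unadjusted p under 0.05 and the median are given, to be read beside all genes. With all libraries 47.8% of all genes were higher and 1.71% had such a p. Without the 3 libraries 41.6% were higher, and 117 higher and 207 lower of 10250 genes had such a p. A list score is the mean of centred log2 values over its members. Sets of libraries came from Ward clustering.

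Named genes were the locus genes; the 10 largest differences each way at an unadjusted p under 0.05, an average of 5 FPKM or more and no 0; in each list the member with the highest level and the one with the smallest p, and in each marker list the highest; the 6 genes with the largest spread within groups; and the 5 with the largest difference each way between the library sets. Other genes named, such as further list members and genes particular to a library, were chosen after their values were seen. The members and lists were chosen with earlier results of these data known. Same-numbered libraries did not deviate together throughout (correlations from -0.42 to 0.53), so the numbers were not used as pairs. Alternatives were a pseudocount of 0.1, other filters, scaling by median ratio or upper quartile, a Y-linked term, the library sets, a replicate block, array weights, +/+ alone as control and the removal of single libraries. Chosen later, with the data seen, were a term for 3 sets, 3 libraries left out together and removal of a GC trend. A difference counts as reversed only where it exceeded its SE with all libraries.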

Additional observations from a re-analysis of the deposited data

Results flagged for a closer look

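Among 102 named genes, 203 sets of values (a gene in the 6 D/D or the 5 +/+ libraries) were examined for a library far from the rest of its group, and 21 held one by Dixon's criterion, where chance flags about 5%. The library labelled +/+ replicate 5 accounted for 8 of them. It was low at Hand2os1 (LOC102636514, listed at 0 FPKM, next 6.90), the heat shock protein Hspb8 (177 FPKM, next 300.01), B2m (0.71, next 88.3), Rpl31-ps12 (0.78), Nop10 (0.57), Ppia (1.20) and Slirp (1.99), and high at Slc10a3-ubl4 (27.2 FPKM, next 1.75). Nop10 serves ribosomal RNA modification, Ppia is cyclophilin A and Slirp binds mitochondrial messenger RNA. D/D replicate 6 was low at 4 of the same genes, Rpl31-ps12 (5.28 FPKM), Nop10 (0.76), Ppia (0.63) and Slirp (listed at 0), and high at the ubiquitin ligase Trim63 (375 FPKM, next 136). Rpl31-ps12, Nop10, Ppia and Slirp were named for their low values in this pair of libraries, Slc10a3-ubl4 for its high values there and Mir682 for its spread within groups, so their flags follow from that choice and are not to be read against the 5%. Rpl31-ps12 and Ppia have near-identical copies elsewhere, so their reads may have been split.

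D/D replicate 5 was high at Txnrd1 (43.2 FPKM, next 21.96) and at the epicardial gene Wt1 (3.19, next 1.52), and low at Rmnd1 (1.07, next 4.98). D/D replicate 4 was high at Hk1 (87.3 FPKM, next 71.2), and D/D replicate 3 was low at Hba-a2 (0.02 FPKM against 0.03, a difference in the last printed digit). In +/+, replicate 4 was high at Cdkn1a (112 FPKM, next 28.2) and at the microRNA gene Mir682 (5572 FPKM, where the other 12 libraries were listed at 0), and replicate 1 was low at Herpud1, a gene of the unfolded protein response (86.8 FPKM, next 177).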

How the results depend on the processing

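Each alternative for D/D against control gave 0 called genes by limma, and the smallest adjusted p was 0.0649 (without +/+ replicate 5). The count at an unadjusted p under 0.05 was 175 with all libraries, 398 with no filter and with array weights, 101 at a mean of at least 5 FPKM, 92 with +/+ as the only control, 307 and 388 with 2 and 3 sets as a term, and 324 with the 3 libraries left out. The replicate block gave 0 calls and 339 genes at an unadjusted p under 0.05, and the replicate numbers were not taken as pairs; not every library correlated best with its own number. Leaving out 1 library at a time gave 0 to 1 calls for D/+ against +/+ and for D/D against D/+; the 1 call was Aqp6 without D/+ replicate 2, where the lone D/+ library is assumed to vary like the others. The genes with an interval within 1 of 0 numbered 8748 with a pseudocount of 0.1, 16141 with no filter and 5835 at a mean of at least 5 FPKM, where more and fewer genes were tested, and 9367 to 9732 with 1 library left out. Within the pair +/+ 5 and D/D 6, without a test, Hand2os1 differed by 0, Hand2 by -0.34, Rpl10 by 0.23, Herpud1 by 0.91, Fabp3 by -0.17 and Foxo3 by 0.96. With +/+ 5, D/D 5 and D/D 6 left out, Fosl2 was at -0.14, Mt1 at -0.073, Ak1 at 0.034 and Map1lc3b at -0.071. These 8 genes and Hand2 had the opposite sign there, and the cause was not tested. The median of all genes was -0.0079 as deposited, 0.010 with median-ratio and -0.014 with upper-quartile scaling. With no read counts, the precision of single values cannot be given, and a listed 0 is not a measured absence.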

Other observations

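Genes that stood out in 1 library, chosen after their values were seen, formed different groups in the 2 D/D libraries with high stress genes. In D/D 5, Hmox1 (228 FPKM, next library 40.1), Srxn1, which restores oxidised peroxiredoxins (32.7 FPKM), Nfkbiz, an inhibitor protein of NF-kappaB (27.8 FPKM), Thbs1, a matrix glycoprotein (21.1 FPKM), the BMP target Id1 (185 FPKM) and Socs3, a brake on cytokine signalling (169 FPKM), were at least 2-fold above each of the other 12 libraries on the log2(FPKM + 1) scale. In all 12 genes were so high in D/D 5 and 4 so low.

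In D/D 6 there were 43 genes at least 2-fold above and 22 at least 2-fold below each other library. The high genes included Fkbp5, a classic glucocorticoid target (66.6 FPKM, next 15.2), Lcn2, an acute-phase iron-scavenging protein (116 FPKM, next 25.2), Lrg1 (316 FPKM), the insulin receptor substrate Irs2 (156 FPKM), the fatty acid transport protein Slc27a1 (231 FPKM), the thioesterase Acot1 (104 FPKM, with near-identical copies) and the hormone-sensitive lipase Lipe (78.9 FPKM). Lmod3, an actin nucleator (11.3 FPKM), Asph (24.0 FPKM) and Mpc1, the mitochondrial pyruvate carrier (10.8 FPKM), were low. In the library labelled +/+ replicate 5, 101 genes were at least 2-fold below each of the other 12, among them Casq2, calsequestrin (16.6 FPKM), and B2m (0.71 FPKM).

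The difference between the pair of libraries that stood apart (+/+ 5 and D/D 6) and the other 11 followed the GC content of the longest transcript. Over 5 equal groups of genes ordered by GC (median 42.5% to 58.2%) the median log2 difference was -0.50, -0.37, -0.13, 0.14 and 0.40, while for D/D against control it ran from -0.05 to 0.03. Its cause was not tested.

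Y-linked genes summed to 1 FPKM or more in +/+ 1, 4 and 5 and in D/D 1, 2, 4 and 6, and Xist was at 4.94 to 7.87 FPKM in the other 6 libraries. A test of whether the D/D difference depended on this split, added after seeing the data, called 0 of 10249 genes by limma (smallest adjusted p 0.718), with 233 (2.27%) at an unadjusted p under 0.05.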
